A study of Mus musculus with 12 samples.

Results

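Potassium channel genes outside the G protein-gated group were examined in the lateral habenula of mice after a defeat stress. They were chosen by name: every protein-coding gene of the deposited expression table whose mouse symbol starts with Kcn in the GENCODE M21 annotation was kept, except Kcnj3, Kcnj5, Kcnj6, Kcnj9, Kcnj10 and Kcnj13. The rule gave 74 of the 17416 genes in the table and used no measured value. The animals were C57BL/6 mice of 9 weeks. The 3 groups were mice that had not been defeated, defeated mice classed as susceptible to the stress and defeated mice classed as resilient, with 4 libraries in each. The labels name no sex, transgene or agent. Brains were cut at 500 µm, the habenula was punched under a microscope, and libraries were made with the SMART-Seq v4 kit from 100 pg of RNA. A deposited table of a social avoidance test lists 1 mouse per library, with an interaction ratio of 1.12 to 1.84 in non-defeated, 0.13 to 0.69 in susceptible and 1.08 to 2.24 in resilient animals. What is divided by what in that ratio is not stated.

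Potassium channels let potassium leave the cell and so oppose firing. Voltage-gated channels (Kv) are built from pore-forming alpha subunits, which open on depolarization, and they assemble with auxiliary subunits that set their gating and their delivery to the membrane. Inward rectifiers (Kir) and two-pore channels (K2P) hold the resting potential, and calcium- or sodium-activated channels shape the afterhyperpolarization that follows spikes. The lateral habenula projects to midbrain centres that release dopamine and serotonin, and the way its neurons fire, in single spikes or in bursts, is studied as a correlate of depressive-like behaviour.

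Each library held between 33302292 and 47737054 reads assigned to genes, and the ranges of the 3 groups overlapped. The 6 lateral habenula markers and the 7 medial habenula markers looked at were all read. Summed over the lateral list they came to between 979 and 2091 CPM (read counts scaled to library size, here by the TMM method). The medial list came to between 647 and 1356 CPM, so the punches also held medial habenula RNA. Its sum was 1138, 1207, 647 and 737 CPM in resilient replicates 1 to 4, against 862 to 1356 CPM in non-defeated libraries. For resilient against non-defeated mice, 5 medial markers had a log2 fold change below 0 and 2 above, with a median of -1.41. None of them passed adjustment, and their part in that comparison was not tested. A list of 6 thalamus markers, all read, came to between 669 and 1223 CPM, and its part in the channel levels was not tested. In bulk tissue, fewer cells of a type and less RNA per cell cannot be told apart. Resilient replicate 4 stood apart in its vessel markers: its endothelial list summed to 320 CPM against 62.9 to 112 CPM in the other 11 libraries, and its mural list to 223 CPM against 40.4 to 64.7 CPM. The same library had the lowest lateral habenula sum, 979 CPM against 1303 to 2091 CPM in the others. It was also lowest over a list of neuron markers, with 3407 CPM against 3449 to 4880 CPM, and it held the fewest reads. Sample titles carry a letter whose meaning is not given. It is H in all non-defeated libraries, N in all resilient ones, H in susceptible replicates 1 and 2 and N in susceptible replicates 3 and 4. Resilience and the letter cannot be told apart against the non-defeated group except through the susceptible mice.

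The channel genes covered a wide range of levels. Per kilobase of exon, which allows genes to be set against each other, the mean over 12 libraries ran from 0.0404 CPM per kb for Kcnk9, a two-pore acid-sensitive channel, to 73.3 CPM per kb for Kcnip4, a KChIP subunit of Kv4 channels. The median of the 74 genes was 2.73 CPM per kb. Kcnip4 stood at percentile 95.6 of all genes of the table and Kcnk1, a two-pore channel also called TWIK1, at percentile 94.2 with 56.8 CPM per kb. Next came Kcnip3 with 30.7 CPM per kb, Kcnab2 with 28.5, Kcnc4 with 25.3 and Kcnab3 with 25.1. Of the 6 highest genes, 4 therefore code for auxiliary subunits (the KChIPs and the Kv beta subunits Kcnab2 and Kcnab3). The 11 genes grouped as auxiliary were the Kcnip, Kcnab and Kcne genes and Kcnrg. Their median level was 10.4 CPM per kb, against 3.36 for the 27 voltage-gated pore genes. Kcnmb1, Kcnmb2 and Kcnmb4, auxiliary subunits of a calcium-activated channel, were grouped with the activated channels. They had 0.138, 4.89 and 0.774 CPM per kb, so the contrast holds for this grouping only.

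**Figure D1:**
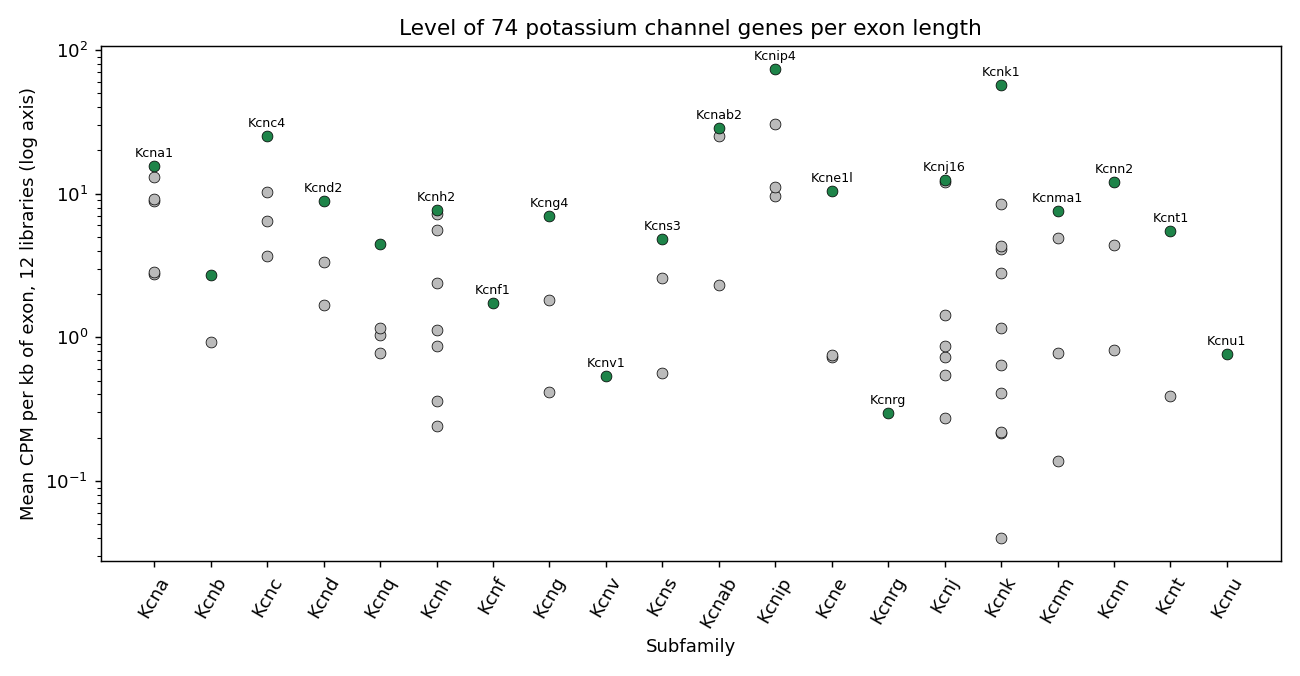
Mean level of each of the 74 genes over 12 libraries, as CPM per kb of exon on a log axis, by subfamily; the highest gene of each subfamily is green and most of these are named. Kcnip4 (73.3 CPM per kb) and Kcnk1 (56.8) lie highest, Kcnk9 (0.0404) lowest.

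Among the pore-forming voltage-gated genes, the leading genes of 4 subfamilies were Kcna1 (Kv1, which opens at low voltage on axons) with 15.5 CPM per kb, Kcnc4 (Kv3, fast-repolarizing channels) with 25.3, Kcnd2 (Kv4, the A-type current of dendrites) with 8.83 and Kcnh2 (ERG) with 7.73. Kcnq3, which contributes to the M current, had 1.17 CPM per kb. The modulatory alpha subunits, which form no channel alone and join Kv2 subunits, were led by Kcng4 with 6.996 CPM per kb. Kcns3 followed with 4.83, Kcns2 with 2.60, Kcng1 with 1.82 and Kcnf1 with 1.74, and Kcnv1 had 0.541. In the MinK-related group Kcne1l (now called Kcne5) was highest with 10.4 CPM per kb, while Kcne2 and Kcne4 had 0.747 and 0.727. Kcnrg, a regulator of Kv1 channel assembly, had 0.296.

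Outside the voltage-gated channels, the highest inward rectifiers were Kcnj16 (Kir5.1) with 12.4 CPM per kb and Kcnj12 (Kir2.2) with 11.98. The other 5 inward rectifiers lay between 0.275 and 1.43 CPM per kb. After Kcnk1, the two-pore genes fell to 8.44 CPM per kb for Kcnk13 (THIK1) and 4.31 for Kcnk3 (TASK1). The activated channels were led by Kcnn2 (SK2, calcium-activated, with a role in afterhyperpolarization) with 12.02 CPM per kb, Kcnma1 (the BK pore) with 7.54 and Kcnt1 (Slack, sodium-activated) with 5.48. The Slo3 gene Kcnu1, known from sperm, had 0.766.

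Genes of low level varied more between libraries. The coefficient of variation within groups had a median of 48.2% over the 74 genes. It was 25.6% for the 16 genes of 50 CPM or more, 40.2% for the 35 genes between 5 and 50 CPM and 97.4% for the 23 genes under 5 CPM. Kcnab2, the Kv beta subunit, was the least variable gene with 8.34%, and Kcnk5, the two-pore channel TASK2, the most variable with 181%. In 20 genes at least 1 library had no read at all, and in 17 of these another library held 100 reads or more. The genes without a read in some library were 17 of the 23 under 5 CPM and 3 of the 35 between 5 and 50 CPM, and the shallowest library held 33302292 reads. A library without a read therefore often stood beside one well above counting noise.

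**Figure D2:**
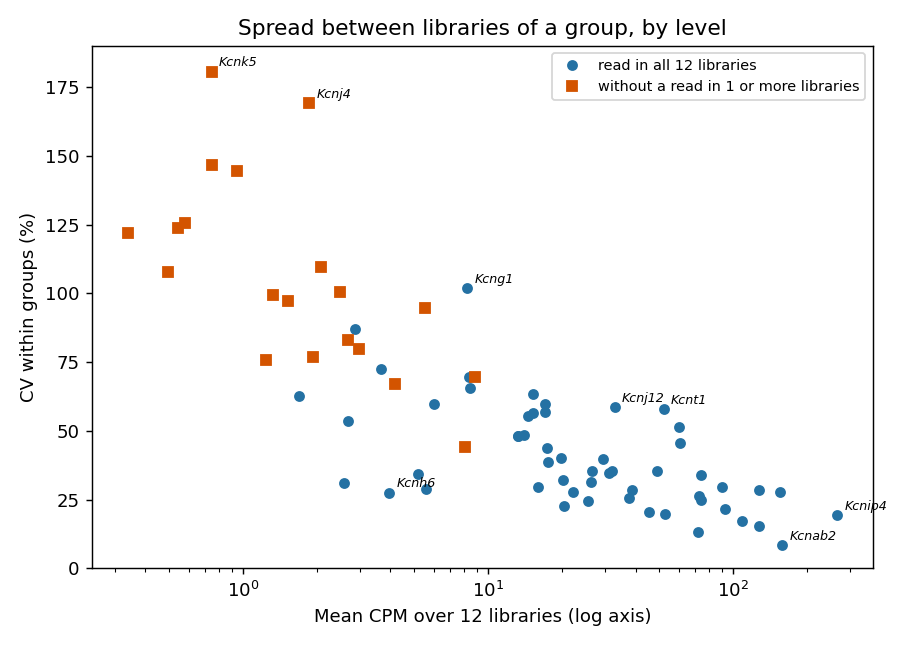
Coefficient of variation within groups, in percent, against mean CPM over 12 libraries on a log axis for each of the 74 genes; squares mark genes without a read in 1 or more libraries. The spread is largest in the genes of low level, and Kcnab2 lies lowest with 8.34%.

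Setting susceptible against non-defeated mice asks which genes differ after the stress in mice that became susceptible. None of the 74 channel genes changed by limma (Benjamini-Hochberg adjusted p under 0.05 over all 17111 genes tested, all 74 among them). All genes gave 0% called. At an unadjusted p under 0.05, 2 of 74 genes stood lower (background 1.8%) and 0 higher (background 1.74%). Both directions together make 2.703%, against 3.54% of all genes. By edgeR's quasi-likelihood test and by DESeq2 there were 3 such genes each, and none passed adjustment. Leaving out non-defeated replicate 1 gave 6 such genes, replicate 2 of that group 4 and replicate 3 of that group 5. Leaving out susceptible replicate 4 gave 5, and resilient replicate 1 gave 3. The share of all genes at this unadjusted threshold was counted for the main fit only, so the counts under alternatives have no background. The median log2 fold change of the 74 genes was 0.04, with 40 above 0, against 52.1% of all genes, and that of all genes was 0.01. The 2 genes were Kcnip3 and Kcnk6, which were also the 2 whose groups did not overlap. Such separation occurred in 2.703% of the channel genes and in 2.22% of all genes.

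Kcnip3 codes for KChIP3, a calcium-binding protein that serves as a Kv4 channel subunit and, under the name DREAM, as a transcriptional repressor. The gene lies at chr2:127456498-127522094 on the minus strand of GRCm38. It had 130, 131, 162 and 119 CPM in the non-defeated libraries, 102, 64.1, 109 and 108 CPM in the susceptible ones, and 95.9, 105, 109 and 72.0 CPM in the resilient ones. Every defeated library lay below every non-defeated one. The means were 135 ± 18.4, 95.8 ± 21.3 and 95.3 ± 16.4 CPM (SD, n = 4). The log2 fold change was -0.52 (SE 0.20) for susceptible against non-defeated mice, with a limma p of 0.0211 and an adjusted p of 0.998. For resilient against non-defeated mice it was -0.51 (SE 0.20), with a limma p of 0.0226 and an adjusted p of 0.592. Both comparisons share the non-defeated libraries. Susceptible and resilient mice differed by -0.01 (SE 0.20) on the same scale. With the title letter as a term in the model, the values were -0.73 and -0.93. Leaving out single libraries, or the 3 least correlated ones, gave -0.59 to -0.34 in both comparisons.

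RefSeq gives Kcnip3 3 promoter windows on GRCm38.p6. They are shown because Kcnip3 is the single channel gene of the 74 for which both defeated groups lay apart from the non-defeated one, and they differ in CG content. How many of all genes had both groups apart was not counted, so this choice marks no excess. In single comparisons, 2.22% (susceptible) and 3.66% (resilient) of all genes lay apart from non-defeated mice. Each is the 250 bases before a start, 5′ to 3′ on the minus strand, with the CG dinucleotides in capitals. The first, at chr2:127522095-127522344, holds 4 CG, the second, at chr2:127521393-127521642, holds 2, and the third, at chr2:127482500-127482749, holds 23.
Kcnip3 start 1: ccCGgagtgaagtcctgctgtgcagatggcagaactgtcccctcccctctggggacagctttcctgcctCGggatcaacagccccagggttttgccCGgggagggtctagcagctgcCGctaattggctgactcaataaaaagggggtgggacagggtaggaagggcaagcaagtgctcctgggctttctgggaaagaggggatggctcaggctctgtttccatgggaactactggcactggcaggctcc
Kcnip3 start 2: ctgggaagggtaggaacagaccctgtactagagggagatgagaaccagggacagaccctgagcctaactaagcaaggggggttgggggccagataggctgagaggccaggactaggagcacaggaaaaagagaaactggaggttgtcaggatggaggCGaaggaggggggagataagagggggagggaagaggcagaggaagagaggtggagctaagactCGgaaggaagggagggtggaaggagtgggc
Kcnip3 start 3: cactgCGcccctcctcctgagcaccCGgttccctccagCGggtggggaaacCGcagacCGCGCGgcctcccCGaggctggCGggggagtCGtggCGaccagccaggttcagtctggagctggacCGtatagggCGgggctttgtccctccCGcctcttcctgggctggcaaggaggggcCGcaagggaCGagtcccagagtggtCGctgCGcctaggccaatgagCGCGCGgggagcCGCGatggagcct
Across the 52 channel genes with a RefSeq window, the 75 windows of 300 bases, running from 250 bases before a start to 50 after it, held a median of 9 CG, against 7 over all 32851 windows. The motif TATAAA, searched on both strands and unable to overlap a CG, occurred in 2.67% of the channel windows and in 13.6% of all windows. These counts describe the letters of the windows and no factor's binding, and the reads were not assigned to starts.

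Kcnk6, the two-pore channel TWIK2, had 4.73, 1.67, 1.41 and 3.04 CPM in non-defeated libraries, 0.733, 1.003, 0.993 and 0.544 in susceptible ones and 0.938, 0.609, 1.87 and 2.85 in resilient ones. The susceptible group lay below the non-defeated group throughout, while the resilient group overlapped both. The log2 fold change of CPM plus 1 was -0.95 (SE 0.38) for susceptible against non-defeated mice, with a limma p of 0.0238 and an adjusted p of 0.998.

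Kcnk5 was read in none of the 4 susceptible libraries. Non-defeated libraries had 0, 4.67, 0.041 and 1.67 CPM and resilient ones 0, 0, 1.64 and 0.930 CPM. The groups overlap at 0. Pooled over libraries, the non-defeated group held 256 reads and the resilient group 104. Taking 3 reads for the whole susceptible group as the limit, Kcnk5 was at least 75.5-fold higher in non-defeated and at least 32.6-fold higher in resilient mice, a bound that covers counting error only and rests on single libraries. The fitted log2 fold change for susceptible against non-defeated mice was -0.995 (SE 0.50), with a limma p of 0.0676 and an adjusted p of 0.998. In the authors' deposited table, its FDR over the 3 groups was 0.370, the smallest among the 74 genes.

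The other genes with the smallest p on each side had an unadjusted p above 0.05. On the higher side were Kcna4 (Kv1.4, a rapidly inactivating channel) with a log2 fold change of 1.01 (SE 0.49), Kcnd1 (Kv4.1) with 1.31 (SE 0.77), Kcnj12 with 0.95 (SE 0.61), Kcnh3 with 1.01 (SE 0.65) and Kcnk3 with 0.61 (SE 0.47). Kcna4 had 2.33, 13.9, 6.09 and 12.1 CPM in non-defeated libraries against 26.8, 14.3, 15.7 and 9.53 in susceptible ones, and the groups overlapped. With the title letter as a term, Kcnj12 was at 0.016, Kcnh3 at 0.24 and Kcnk3 at 0.069. Single libraries also moved these values: Kcna4 was at 0.57 without non-defeated replicate 1, and Kcnj12 at 0.43 without non-defeated replicate 4, at 0.57 without susceptible replicate 4 and at 1.49 without non-defeated replicate 3. Kcnh3 was at 0.50 without susceptible replicate 4 and 1.53 without susceptible replicate 2, and Kcnk3 at 0.36 without susceptible replicate 3 and 0.40 without non-defeated replicate 1. Kcnd1, at 0.54 without non-defeated replicate 3, was without a read in that library, and its difference changed sign, to -0.08, without the 3 least correlated libraries (chosen after seeing the data). On the lower side, Kcnb2 (Kv2.2) had -0.79 (SE 0.45) and Kcne2 -0.78 (SE 0.54), with CPM of 16.7 ± 6.31 against 10.4 ± 8.57 and 1.52 ± 1.48 against 0.354 ± 0.593 (SD, n = 4). Kcnb2 was at -1.23 without susceptible replicate 4, and Kcne2 at -0.45 without non-defeated replicate 4.

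**Figure D3:**
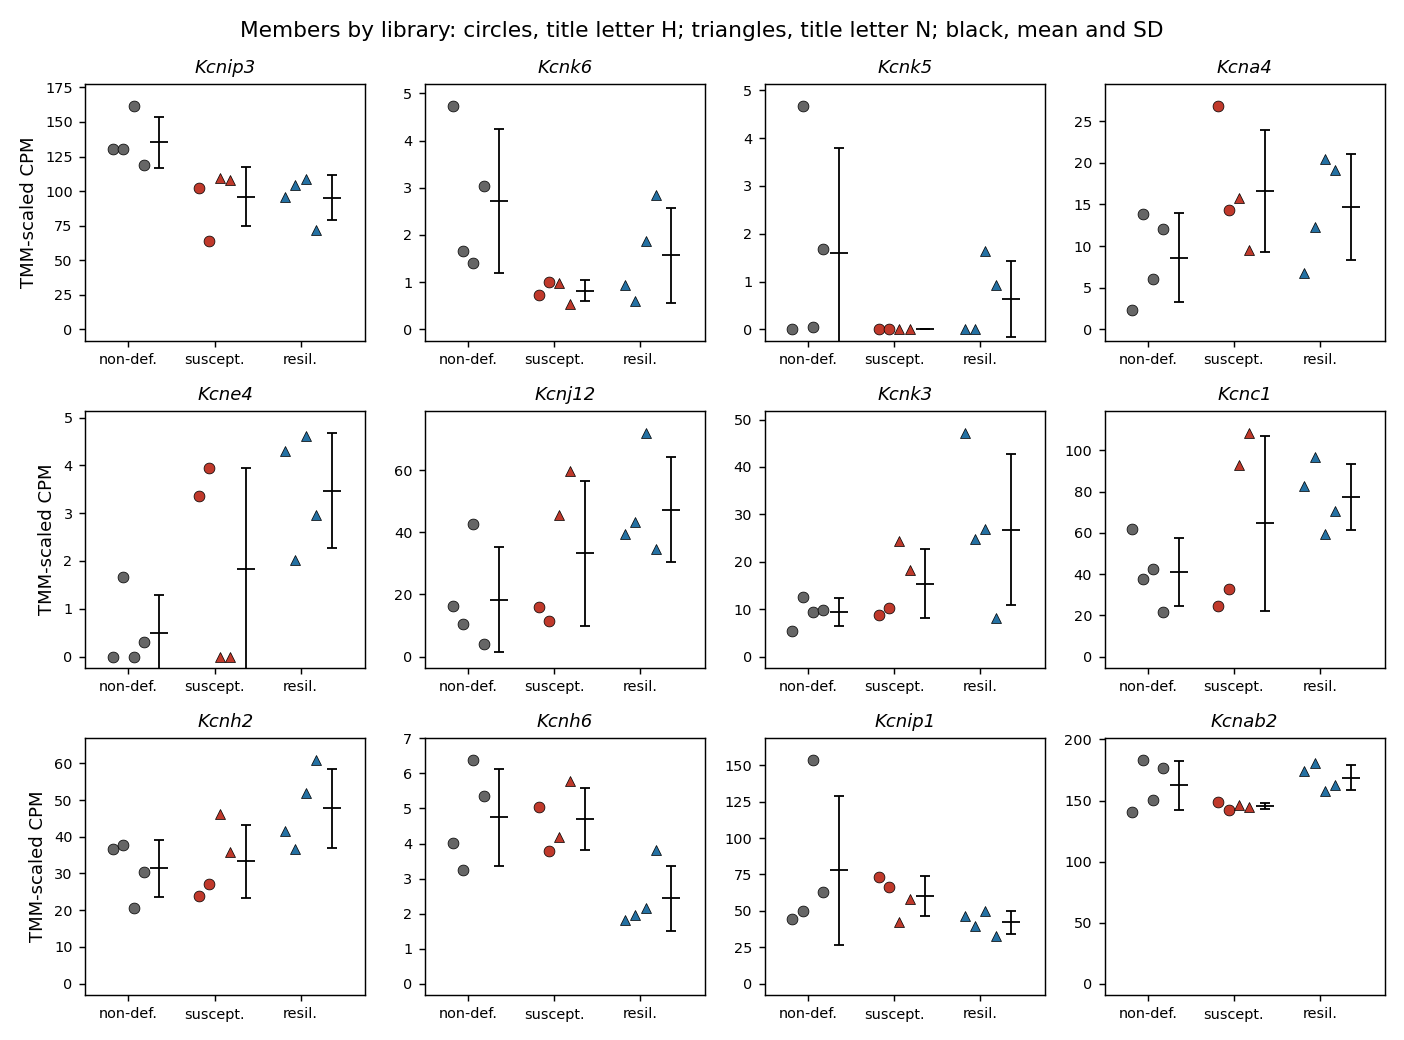
TMM-scaled CPM of 12 named genes in each library, circles for title letter H and triangles for N, with mean and SD in black. Kcnip3 is higher in all 4 non-defeated libraries than in the other 8, while for Kcnj12 and Kcnc1 the susceptible libraries of letter N lie with the resilient ones.

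Of the 3 comparisons, resilient against non-defeated mice had the most small p-values. None of the 74 genes changed by limma, and 1 of all 17111 genes did, which is 0.00584%. At an unadjusted p under 0.05 there were 9 of 74 genes (12.2%), against 7.14% of all genes, with 6 higher (background 4.27%) and 3 lower (background 2.87%). The higher ones were Kcne4, Kcnj12, Kcnk3, Kcnh2, Kcnc1 and Kcnh1, and the lower ones Kcnip3, Kcnh6 and Kcnip1. By edgeR's quasi-likelihood test on the recovered reads the number was 5 and by DESeq2 8, and none passed adjustment with either. Without non-defeated replicate 3 or 4 the number was 5 each, and without resilient replicate 2 or 3 it was 6 each. With the title letter as a term it was 4. The share of all genes was not counted under these alternatives. Groups were fully apart for 3 genes (4.05%, where all genes gave 3.66%), among them Kcne4, which was higher, and Kcnip3, which was lower.

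Kcne4 codes for a small single-pass subunit that inhibits Kv1 and modifies Kv7 channels, and lies at chr1:78816758-78820028 on the plus strand of GRCm38. It had 0, 1.67, 0 and 0.304 CPM in non-defeated libraries, 3.37, 3.95, 0 and 0 in susceptible ones and 4.30, 2.02, 4.61 and 2.96 in resilient ones. Resilient libraries lay above all non-defeated ones, and the susceptible group was split between libraries with several CPM, of letter H, and libraries without a read, of letter N. The log2 fold change of CPM plus 1 for resilient against non-defeated mice was 1.67 (SE 0.55), with a limma p of 0.0092 and an adjusted p of 0.564, the smallest adjusted p of the 74 genes. With the letter as a term it was 3.89, and susceptible against resilient moved from -1.01 to -2.12. The letter's effect in that fit is set by the split among the susceptible libraries alone. The 3.89 is larger than the difference between any resilient and any non-defeated library on this scale, so it is an extrapolation and no measured difference.

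Kcnj12, coding for Kir2.2, one of the inward rectifiers that clamp the resting potential, had 16.4, 10.4, 42.7 and 3.91 CPM in non-defeated, 16.0, 11.4, 45.7 and 59.8 in susceptible and 39.3, 43.3, 71.9 and 34.7 in resilient libraries. One non-defeated library fell within the resilient range, and the susceptible libraries were low under letter H and high under letter N. The log2 fold change for resilient against non-defeated mice was 1.69 (SE 0.61), with a limma p of 0.0142 and an adjusted p of 0.573. With the letter as a term it changed sign, to -0.18, so its direction depended on that term. Across the 7 inward rectifiers, 6 had a fold change above 0 in this comparison, against 52.8% of all genes, and the median was 0.34. None passed adjustment. Kcnj8 (Kir6.1), the pore of the KATP channel of mural cells, had 3.74, 0.597, 6.21 and 1.42 CPM in non-defeated, 7.05, 4.07, 4.24 and 2.23 in susceptible and 2.59, 2.87, 0.561 and 8.15 in resilient libraries. Its highest value was in resilient replicate 4, the library of high vessel markers. Kcnj8 was described after its values were seen.

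Kcnk3, the acid-sensitive leak channel TASK1, had 5.43, 12.6, 9.35 and 9.89 CPM in non-defeated, 8.70, 10.3, 24.3 and 18.2 in susceptible and 47.1, 24.8, 26.9 and 8.21 in resilient libraries. Resilient replicate 4 lay within the non-defeated range and the other 3 above it. The log2 fold change for resilient against non-defeated mice was 1.26 (SE 0.47), with a limma p of 0.0172 and an adjusted p of 0.583. It was 1.70 without resilient replicate 4, whose endothelial and mural markers stood apart, and 0.92 without resilient replicate 1. With the letter as a term it was 0.18.

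Kcnc1 (Kv3.1, of fast-spiking cells) was split by letter among the susceptible libraries, and the ERG gene Kcnh2 was so only in part. Kcnc1 had 61.6, 37.5, 42.4 and 21.7 CPM in non-defeated, 24.3, 32.7, 92.8 and 108 in susceptible and 82.8, 96.9, 59.2 and 70.4 in resilient libraries. The 2 susceptible libraries of letter N lay in or above the resilient range and those of letter H within the non-defeated range. For Kcnh2 the values were 36.7, 37.7, 20.6 and 30.5 CPM in non-defeated, 24.0, 27.0, 46.2 and 35.9 in susceptible and 41.5, 36.7, 51.9 and 60.8 in resilient libraries. The resilient and non-defeated groups overlapped narrowly. Of the susceptible libraries of letter N, replicate 3 lay in the resilient range for Kcnh2 and replicate 4 in the non-defeated range. The log2 fold changes for resilient against non-defeated mice were 0.97 (SE 0.43) and 0.60 (SE 0.26), with limma p of 0.0404 and 0.0389 and an adjusted p of 0.661 for each, and with the letter as a term they changed sign, to -0.82 and -0.06. Kcnh1 (EAG1), outside the naming rule and named after its values were seen, had 1.05 (SE 0.47) with CPM of 12.4 ± 7.84 against 22.6 ± 4.59 (SD, n = 4).

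On the lower side, the KChIP genes shared a direction when all libraries were used. All 4 of them (Kcnip1, Kcnip2, Kcnip3 and Kcnip4) had a fold change below 0 in resilient against non-defeated mice, with a median of -0.37, against 47.2% of all genes below 0. Kcnip1 had 44.3, 50.2, 153 and 63.1 CPM in non-defeated, 73.4, 66.7, 42.3 and 58.4 in susceptible and 46.5, 39.3, 49.7 and 32.6 in resilient libraries. Its log2 fold change was -0.70 (SE 0.33), with a limma p of 0.0492 and an adjusted p of 0.694. Without non-defeated replicate 3, where Kcnip1 and the medial habenula list (1356 CPM) were both highest, it was -0.32 (limma p 0.194), and without the 3 least correlated libraries -0.07. With the letter as a term it was -0.22. Their part in the result was not tested further. Kcnip2 and Kcnip4 were at -0.24 (SE 0.28) and -0.14 (SE 0.20). Resilient replicate 4 had the lowest value of the resilient group for all 4, 72.0 CPM for Kcnip3 and 154 CPM for Kcnip4. For Kcnip4, resilient replicates 1 and 2 lay above non-defeated replicates 1 to 3, so its fold change below 0 depends on resilient replicate 4.

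The ERG gene Kcnh6 had 4.02, 3.26, 6.37 and 5.35 CPM in non-defeated, 5.04, 3.78, 4.19 and 5.77 in susceptible and 1.83, 1.95, 2.15 and 3.80 in resilient libraries. Resilient replicates 1 to 3 lay below all other libraries and replicate 4 did not. The log2 fold change was -0.75 (SE 0.33) for resilient against non-defeated mice, with a limma p of 0.0412 and an adjusted p of 0.666. Kcna5 (Kv1.5) was at -1.30 (SE 0.61), with 10.9 ± 2.504 against 5.39 ± 4.01 CPM (SD, n = 4), and without resilient replicate 3, where it had no read, it was -0.56.

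**Figure D4:**
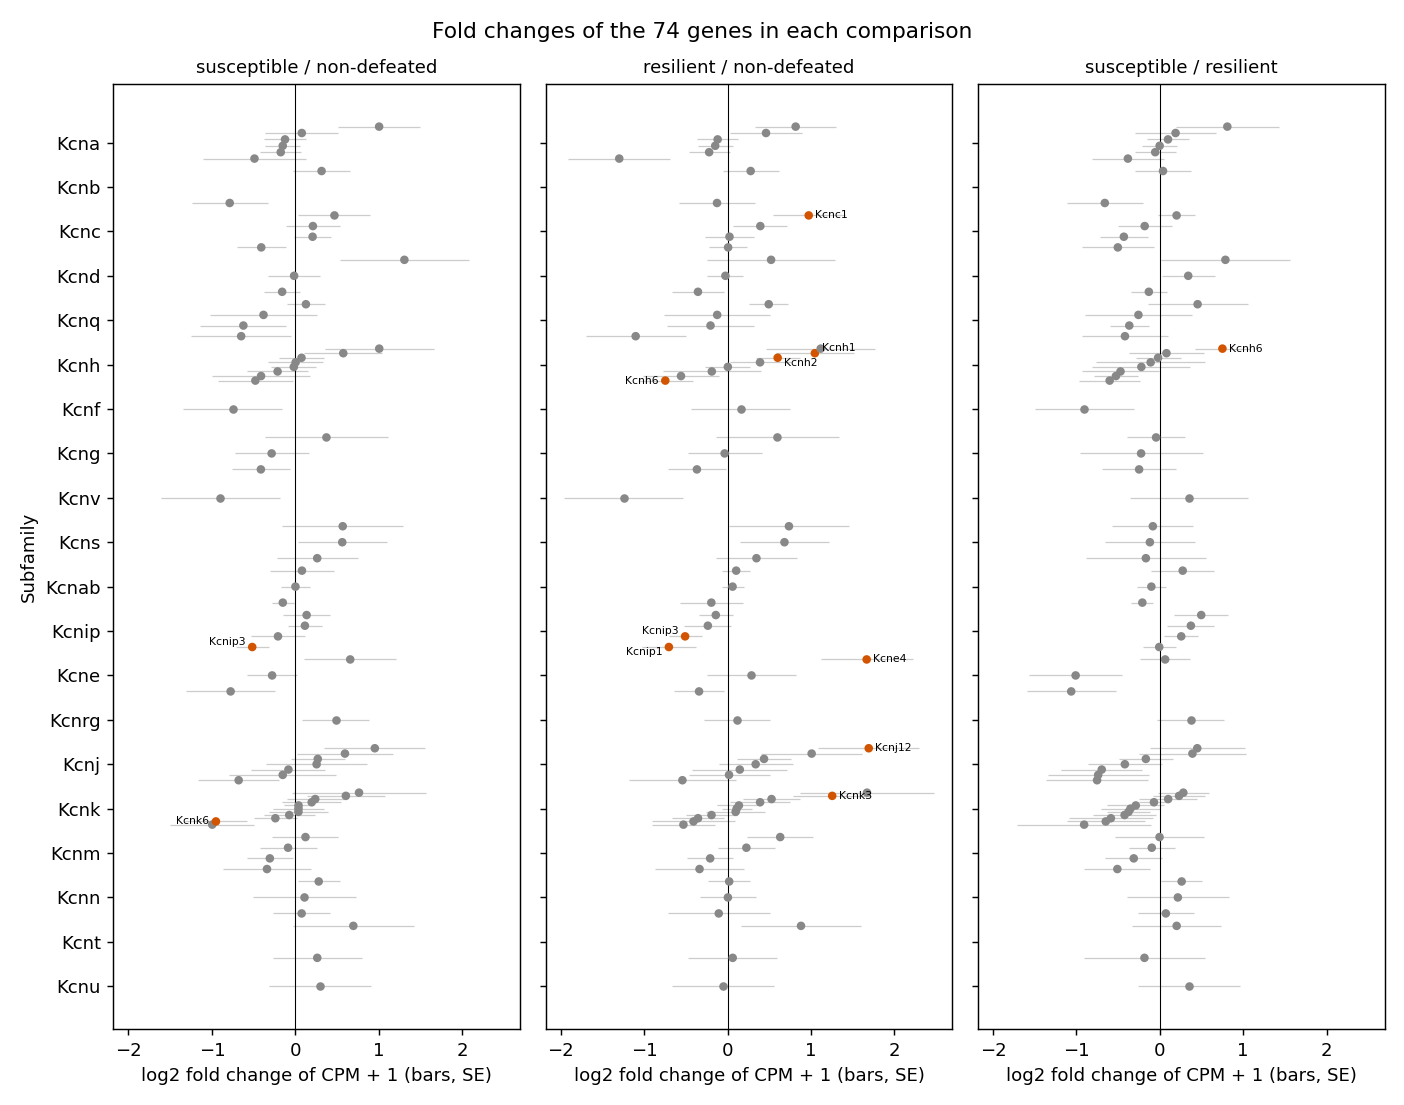
Log2 fold changes of CPM plus 1 with their SE for the 74 genes in each comparison, by subfamily; orange and named are genes at an unadjusted p under 0.05. There are 2, 9 and 1 such genes, and no gene passed the adjusted threshold.

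Susceptible and resilient mice were both defeated and differ in outcome, and susceptible replicates 1 and 2 also differ from the resilient libraries in title letter. By limma none of the 74 genes changed, and 8 of all 17111 genes (0.0468%) did. At an unadjusted p under 0.05 there was 1 of 74 genes (1.35%), against 3.51% of all genes, with 1.59% higher and 1.92% lower. This was Kcnh6, higher in susceptible mice by a log2 fold change of 0.75 (SE 0.33), with a limma p of 0.0402. Its 4 susceptible libraries reached from 3.78 to 5.77 CPM and its resilient ones from 1.83 to 3.80 CPM, so they overlapped by 1 library. By edgeR's quasi-likelihood test there was 1 such gene and by DESeq2 2. The number was 3 without susceptible replicate 2 or without resilient replicate 4. It was 2 without non-defeated replicate 3, susceptible replicate 1, susceptible replicate 3 or resilient replicate 1. No share of all genes was counted for these alternatives. The median log2 fold change of the 74 genes was -0.11, with 47 below 0, against 52.1% of all genes, and that of all genes was -0.02. With the letter as a term the median of the 74 genes was 0.043. The 2 comparisons with non-defeated mice gave a median of 0.04 each.

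Kcnab2 codes for a Kv beta subunit that carries Kv1 channels along axons. It had 149, 142, 146 and 145 CPM in susceptible, 174, 181, 158 and 163 CPM in resilient and 141, 183, 150 and 176 CPM in non-defeated libraries. It was the single gene of the 74 whose susceptible and resilient libraries did not overlap (1.35%, against 2.45% of all genes). The difference was small: a log2 fold change of -0.21 (SE 0.13), with a limma p of 0.132. The non-defeated libraries spanned both groups.

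The rest of the genes with the smallest p in this comparison were led on the higher side by Kcnip1 with 0.50 (SE 0.33), Kcnip2 with 0.37 (SE 0.28), Kcna5 with 0.81 (SE 0.61) and Kcnip4 with 0.26 (SE 0.20). The lower side held Kcnh2 with -0.53 (SE 0.26), Kcne2 with -1.06 (SE 0.54), Kcne4 with -1.01 (SE 0.55) and Kcnh5 (EAG2) with -0.60 (SE 0.37). Kcnip1 was at 0.25 and Kcnh2 at -0.20 with the letter as a term. Kcne2, which assembles with Kv7 and ERG channels and is strongly expressed in choroid plexus, had 0.354 ± 0.593 CPM in susceptible and 2.08 ± 1.63 CPM in resilient libraries (SD, n = 4). The choroid plexus marker list ranged from 16.4 to 210 CPM over the 12 libraries, and its part in the Kcne2 values was not tested.

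Grouped by role, none of the sets held a gene that passed adjustment. Summed over the 74 genes, potassium channel RNA came to 2385 ± 107 CPM without defeat, 2335 ± 214 CPM in the susceptible and 2425 ± 172 CPM in the resilient group (SD, n = 4), which overlap. The 27 voltage-gated pore genes had medians of -0.02 and 0.00 (log2) for susceptible and resilient against non-defeated mice, with 12 and 14 above 0. For the 8 modulatory subunits these medians were -0.01 and 0.25, for the 11 auxiliary subunits 0.00 and -0.14, and for the 11 two-pore genes 0.04 and 0.11. The 10 calcium- or sodium-activated genes gave 0.12 and 0.01, and Kcnn2, their highest member, had 85.4 ± 34.8, 101 ± 28.4 and 82.6 ± 9.48 CPM in the 3 groups (SD, n = 4). Kcnip4, the highest gene of all, had 265 ± 43.5, 285 ± 23.8 and 247 ± 74.3 CPM and Kcnk1 122 ± 12.03, 125 ± 8.71 and 134 ± 30.8 CPM. Differences of these 2 between groups were below the SD of the resilient group, but not below the SD of every group. For Kcnk1, resilient replicate 4 had 88.7 CPM against 144 to 157 CPM in the rest of that group.

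**Figure D5:**
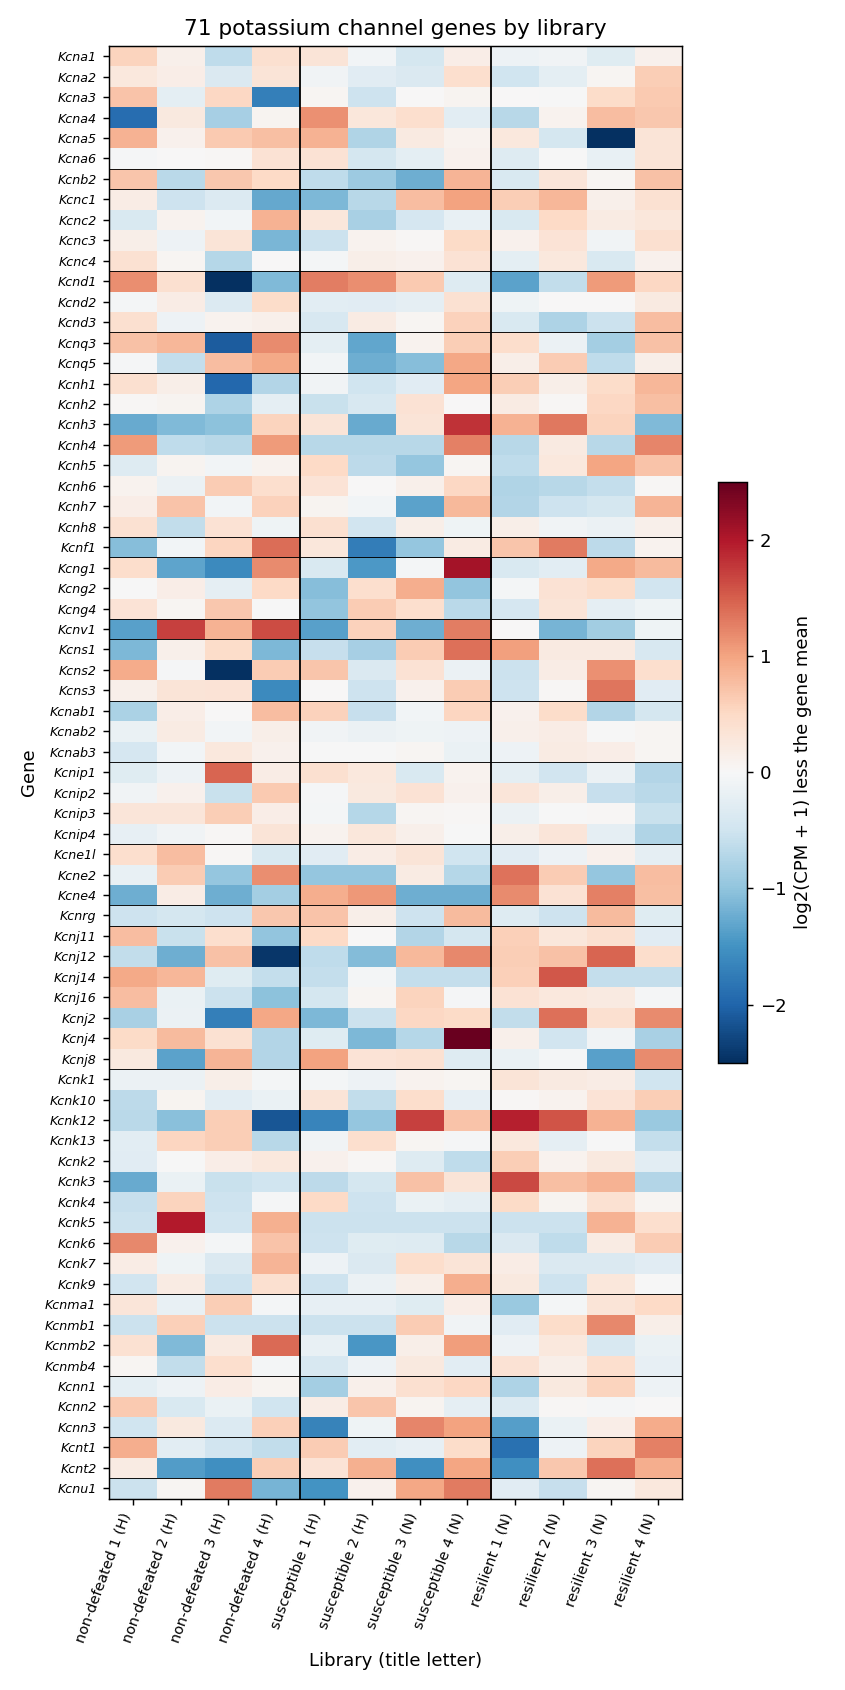
Level of 71 channel genes in each library as log2(CPM + 1) less the mean of that gene, by subfamily and group, with the title letter in brackets. No column of a whole group stands out, and low genes such as Kcnk5 or Kcne4 are read in some libraries and not in others.

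Inside the susceptible group, libraries of the 2 title letters differed for part of the channel genes. Among the 51 channel genes of at least 5 CPM, both libraries of letter N lay above both of letter H in 15 (29.4%) and below in 4 (7.84%), against 16.9% and 16.4% of the 11507 genes at that level. The median log2 ratio of letter N to letter H was 0.16 for the channel genes and -0.01 for all. One library of letter H weighed in this: taken as log2(CPM + 1) less each gene's mean, the median over the 74 genes was -0.298 in susceptible replicate 2, the lowest of the 12 libraries, and -0.085 in susceptible replicate 1, against 0.073 and 0.152 in replicates 3 and 4. Resilient replicate 1, of letter N, was at -0.125. With 2 libraries per letter, the letter and these single libraries cannot be told apart.

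Proteins that assemble with or anchor potassium channels were listed separately, 25 genes of which 23 were in the table and tested. None was called in any of the 3 comparisons. Their median log2 fold changes were -0.09 (9 above 0, 14 below), 0.13 (12 and 11) and -0.02 (11 and 12), with susceptible against non-defeated, resilient against non-defeated and susceptible against resilient in that order. Vapb, a contact-site protein that binds Kv2 channels, had 76.0 ± 7.60 CPM without defeat, 75.8 ± 38.5 in the susceptible and 35.2 ± 24.4 in the resilient group (SD, n = 4). Its log2 fold change was -1.29 (SE 0.40) for resilient against non-defeated mice, with an adjusted p of 0.564, and 1.15 (SE 0.40) for susceptible against resilient mice. Calm3, a calmodulin gene whose protein is the calcium sensor of SK channels, was at -0.63 (SE 0.22) and -0.35 (SE 0.22) for resilient and susceptible against non-defeated mice, and its non-defeated values ran from 586 to 1216 CPM. Lrrc38, a BK gamma subunit, was at 1.32 (SE 0.40) for susceptible against non-defeated mice, with means of 3.33 and 0.977 CPM. Adam22, a Kv1 complex protein, was at -0.44 (SE 0.22) for susceptible against resilient mice.

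The counting setting for strand is not given in the sources used here, so reads from a gene and an overlapping antisense gene cannot be told apart. In 21 of the 74 genes some exon bases are shared with another annotated gene, and in 2 the share with a single antisense gene passed 20%: Kcna6 with 39.6% and Kcnmb4 with 20.8%. Among the genes with the smallest p above, Kcnk3 shares 5.76% of its exon bases with 1 gene, Kcnip4 4.63% and 2.73% with 2 genes, Kcnab2 2.24% with a gene on its own strand, and Kcnh3 a single base.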

How the data were processed

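The members and gene lists were chosen with earlier results of these data known. Gene-level read counting used featureCounts and edgeR on GRCm38 (mm10), per the submitters' processing notes; the sources used here do not give aligner, strand setting or versions. The deposited columns headed as read counts hold CPM plus a constant, by the authors; after subtraction of that constant, 100% of values were whole reads within 0.001 read. The authors' log2 fold changes, likelihood-ratio scores, p-values and correlations with an interaction ratio were deposited beside them. Of these, 1 FDR is quoted, named as the authors'. The deposited interaction ratio of each mouse is given by group only. The table held 17416 genes after 1 row without a gene was removed. Of these, 17402 matched GENCODE M21, and the 14 others were not analysed here as members. Exon length was the union of exons.

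CPM were scaled by TMM (edgeR 4.0.16), filtered by filterByExpr (minimum count 10, 17111 genes left) and tested as log2(CPM + 1) by limma-trend (limma 3.58.1, robust, R 4.3.3) over all 12 libraries, with Benjamini-Hochberg adjustment over all tested genes and a threshold of 0.05. Fold changes are on the log2(CPM + 1) scale, which understates low genes. In each comparison the 5 genes of smallest p on each side were named, with the gene of highest CPM per kb in each subfamily and the 2 partner genes of smallest p. A few genes that this rule would name are not reported here. No replicate pair was a duplicate (chi-square over its degrees of freedom at least 72.2). Same-numbered libraries of different groups correlated at -0.19 to 0.13 in their deviations, so the numbers pair no libraries. Alternatives were another scaling, pseudocount, filter, tool (DESeq2 1.42.0, edgeR, voom), fit, block, title letter and left-out library. A search of the proteins for the selectivity filter was not run. Promoter windows are from RefSeq (GRCm38.p6), matched by symbol for 52 of 74 genes. Intervals and floors (3 reads) cover counting error only.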

Additional observations from a re-analysis of the deposited data

Results flagged for a closer look

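In 15 cases, over 14 channel genes, 1 library of a group lay far from the other 3, by Dixon's test at its critical value for 4 samples. This is 6.79% of the 221 gene and group sets looked at, against 8.60% over all genes, and chance flags about 1 in 20.

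Among the susceptible mice, replicate 2 was low for Kcna3, with 11.00 CPM against 16.2 to 17.0 in the others, and for Kcnip3, with 64.1 CPM against 102 to 109, and it was the single library with reads of Kcnj14, at 0.458 CPM. Susceptible replicate 4 was high for Kcnd2, with 58.8 CPM against 36.5 to 38.2, and alone had reads of Kcnh4, at 2.87 CPM. Kcnd2 codes for the A-type channel Kv4.2, which Kcnip subunits accompany.

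Of the non-defeated mice, replicate 4 stood apart in 4 genes. It was high for Kcna6, with 67.1 CPM against 51.0 to 53.1, for Kcnh3, with 2.51 CPM against at most 0.164, and for Kcnrg, with 1.27 CPM against at most 0.0497. It was low for Kcns3, with 3.83 CPM against 15.0 to 17.5. Replicate 2 was low for Kcnb2, with 7.48 CPM against 18.1 to 20.9, and alone held reads of Kcnmb1, at 1.19 CPM. Replicate 3 was low for the M-current gene Kcnq3, with 2.60 CPM against 24.4 to 33.7. Non-defeated replicates 3 and 4 were among the 3 libraries of lowest mean correlation with the others (0.935 and 0.932).

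In the resilient mice, replicate 4 was low for Kcnk1, with 88.7 CPM against 144 to 157. It is the library with high endothelial and mural markers and the lowest lateral habenula and neuron sums. Replicate 1 was high for Kcnk7, with 0.458 CPM against at most 0.0547, and replicate 3 for Kcnrg, with 1.47 CPM against at most 0.164. The part of library make-up in these values was not tested.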

How the results depend on the processing

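The count of channel genes passing the adjusted threshold was 0 in the 3 comparisons under all alternatives run (27 for susceptible against non-defeated, 26 for resilient against non-defeated and 27 for susceptible against resilient), the replicate block among them, in which the count was also 0. The smallest adjusted p of a named gene over all alternatives was 0.357, 0.117 and 0.351 in that order. Over 30 gene and comparison pairs, 794 of 798 alternative values kept the direction. The exceptions were, with the title letter as a term and for resilient against non-defeated mice, Kcnj12 at -0.18, Kcnh2 at -0.057 and Kcnc1 at -0.82, and Kcnd1 at -0.079 for susceptible against non-defeated mice without the 3 libraries of lowest correlation, an alternative chosen after seeing the data.

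The median log2 fold change of the 74 genes moved beyond its replicate spread of 0.144 under the letter alone. With the letter as a term it was -0.18, -0.20 and 0.043 in the same order, and within the shared letter -0.15 for susceptible against non-defeated and 0.042 for susceptible against resilient mice; the cause was not tested. Resilient and non-defeated mice share no letter, so that alternative gave no value. Leaving out 1 library gave medians of -0.06 to 0.09, -0.00 to 0.08 and -0.22 to -0.01. Channel genes at an unadjusted p under 0.05 then numbered 2 to 6, 5 to 10 and 1 to 3, and the share of all genes at that threshold was not counted. The count over all genes called ranged from 0 to 10 without 1 library. DESeq2 called 23, 91 and 38 of all genes and no channel gene. All 280 levels of 20 genes stayed within 1 SD. Genes under 5 CPM had a median coefficient of variation within groups of 97.4%, and the part of depth in it was not tested.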
